A study of Mus musculus with 15 samples.

Results

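Hearts of mice given rivaroxaban, an inhibitor of coagulation factor Xa, were compared with hearts of mice given dabigatran, an inhibitor of thrombin (factor IIa), after myocardial ischemia and reperfusion. The comparison rests on 4 of the 11 libraries in the deposited table, Riva-313 and Riva-319 for rivaroxaban against Dabi-202 and Dabi-204 for dabigatran, and on the 13541 of 16658 listed genes that had at least 0 log2 CPM in at least 3 of the 11 libraries. CPM is the share of a library's reads that fall on a gene, as counts per megaread, with TMM scaling between libraries.

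All mice were wild-type C57BL/6 males of 8 to 10 weeks. The rivaroxaban group received 3 mg/kg and the dabigatran group 10 mg/kg for 7 days before surgery. Surgery closed the left anterior descending coronary artery for 90 min, reperfusion lasted 24 h, and dosing resumed 2 h after surgery. RNA came from tissue that held the infarct and the muscle around it. The doses differ, so a difference between the drugs and a difference between these doses cannot be told apart. The 2 aPC libraries (1 mg/kg of activated protein C) entered the estimate of spread. Libraries named untreated (replicates 17 and 19) and sham (003, 006 and 007) entered it too, and their levels are given beside some results. The labels give one description of the surgery that is not split by group. The labels give no infarct size, and they do not state in so many words that each replicate is a separate animal, so p-values measure only the spread between these samples.

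Factor Xa and thrombin are consecutive proteases of the coagulation cascade. Factor Xa cuts prothrombin to thrombin, and thrombin cuts fibrinogen to fibrin. Both also signal to cells through protease-activated receptors, and thrombin bound to thrombomodulin activates protein C, which dampens inflammation. After reperfusion of an infarct, neutrophils enter the heart first and monocytes follow. Surviving cardiomyocytes, which normally burn mostly fatty acids, turn on stress genes and lower their oxidative metabolism.

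The rivaroxaban libraries held 27072182 and 32108787 reads on listed genes and the dabigatran libraries 26203566 and 36135006. The heart muscle genes Myh6, Tnnt2, Myl2 and Ryr2 lay at 10.74 log2 CPM or above in the rivaroxaban libraries and at 10.40 or above in the dabigatran libraries, and none of the 4 was called. The SD of the log2 difference between replicates was 0.313 for the rivaroxaban pair and 0.483 for the dabigatran pair, and between libraries of the 2 drugs it ran between 0.684 and 1.02. Dabi-202 lay further from the rivaroxaban libraries than Dabi-204 did. A first principal component of the 4 libraries held 84.8% of their variance.

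Rivaroxaban hearts had lower levels of neutrophil, monocyte, cytokine, cardiac stress and ribosome biogenesis genes than dabigatran hearts, and higher levels of fatty acid oxidation genes. Of the 13541 genes, 3161 (23.3%) passed an adjusted p under 0.05, which is what called means throughout. Of these, 1271 (9.39% of genes tested) were higher and 1890 (14.0%) lower with rivaroxaban. The libraries of the 2 groups did not overlap in 70.0% of all genes tested and in all 3161 called genes. A log2 fold change is the rivaroxaban mean minus the dabigatran mean with limma's standard error after ±, from 2 libraries in each group. The median over all genes tested was -0.003, against which the medians of lists below are to be read. Large differences were mostly on the lower side: among called genes, 993 were lower and 612 higher by a log2 fold change of at least 1, and 116 were lower and 5 higher by at least 3.

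The count of called genes rested on single libraries. It was 939 without Dabi-202, 919 without Riva-313 and 1334 without Riva-319, and 3382 without Dabi-204. It was 4839 and 4840 without untreated replicates 17 and 19, which share the estimate of spread. In every one of the 11 fits that left out 1 library, 787 genes were called, 211 higher and 576 lower with rivaroxaban. Every gene reported below as higher or lower belongs to these 787 unless its adjusted p without a library is given beside it. Of called genes, 40.2% were higher with rivaroxaban. Centring each library on its median gave a share of 53.9% and a median over all genes of 0.09. Quantile normalization gave 50.1% and 0.06.

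**Figure D1:**
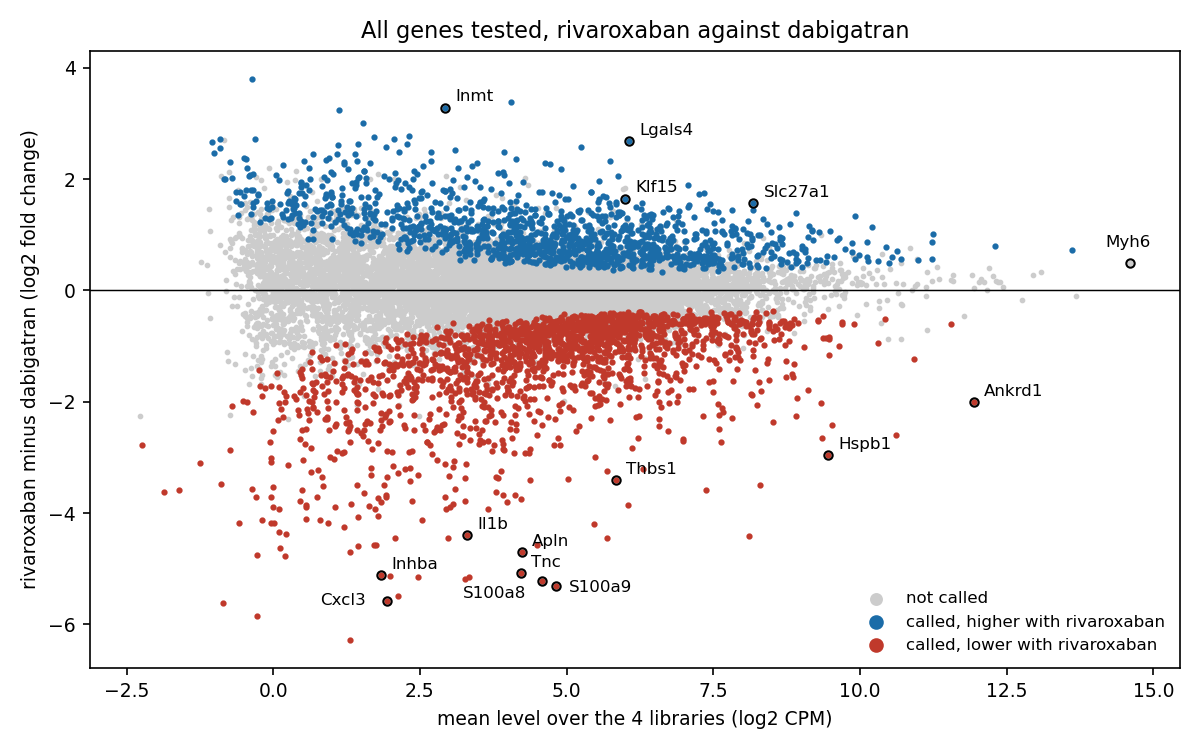
Log2 fold change (rivaroxaban minus dabigatran) of the 13541 genes tested against their mean level over the 4 libraries in log2 CPM; blue points were called higher with rivaroxaban, red points called lower and grey points not called, and circled genes are named in the text. The red points reach further from 0 than the blue ones, with Cxcl3 at -5.57 and Inmt at 3.29, while Myh6 lies near 0 at 0.49.

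Neutrophil genes had the largest median difference of the lists described. Of 17 neutrophil markers tested, 14 were lower with rivaroxaban and 0 higher, with a median of -4.20. S100a9, a subunit of calprotectin, the calcium-binding protein that fills the neutrophil cytosol, stood at 1.78 and 2.56 log2 CPM in the rivaroxaban libraries, against 8.17 and 6.78 in the dabigatran libraries. It was 39.6-fold lower with rivaroxaban (-5.31 ± 0.57, adjusted p = 0.000469). Its partner S100a8 stood at 1.37 and 2.57 log2 CPM with rivaroxaban and at 7.78 and 6.61 with dabigatran (-5.23 ± 0.55, adjusted p = 0.000469). The groups were far apart for both subunits, and the sham libraries, at 2.29 to 3.01 log2 CPM for S100a8, lay near the rivaroxaban ones.

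Receptors that neutrophils carry differed as much. Cxcr2, the receptor for the neutrophil-attracting CXC chemokines, stood at -0.30 and 1.66 log2 CPM with rivaroxaban and at 6.51 and 5.21 with dabigatran (-5.18 ± 0.74, adjusted p = 0.00136). Il1r2, a decoy receptor for interleukin 1, was lower by a log2 fold change of -5.15 ± 0.70 and Csf3r, through which granulocyte colony-stimulating factor acts, by -4.20 ± 0.42. The gelatinase gene Mmp9 stood at 1.72 and 2.69 log2 CPM with rivaroxaban and at 6.67 and 6.89 with dabigatran (-4.58 ± 0.37, adjusted p = 0.000249). Cd177, a neutrophil surface protein, had the largest fold change of any gene named (-6.28 ± 1.21, adjusted p = 0.00551), but Riva-313 held only 2 of its reads, and its adjusted p was 0.0705 without Dabi-202 and 0.0601 without Riva-313. The deposited values go no lower than -3.93 log2 CPM, so fold changes against so few reads are understated.

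The summed level of all 21 listed neutrophil markers was 276 and 245 CPM in the rivaroxaban libraries and 1360 and 780 CPM in the dabigatran libraries. The untreated libraries held 1016 and 458 CPM and the sham libraries 168 to 200 CPM. The rivaroxaban and dabigatran sums did not overlap, and the rivaroxaban sums lay closer to sham. In bulk tissue, fewer cells of a type and less RNA per cell cannot be told apart.

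Chemokines that draw neutrophils were lower as well. Of 16 CXC and CX3C chemokines and receptors tested, 8 were lower and 0 higher, with a median of -1.06. The count was 4 without Dabi-202 or Riva-313 and 5 without Riva-319. The genes Cxcl1, Cxcl2 and Cxcl3, all ligands of Cxcr2, lie in one chemokine cluster on chromosome 5, and all 3 were lower with rivaroxaban, as was Il6. The 100 bases before the start of each of the 4 genes are printed because they share a motif of the kind that nuclear factor kappa B (NF-kappa B) is known to bind. They are RefSeq sequence of build GRCm38.p6, plus strand, 5′ to 3′, from chr5:90891145-90891244 (Cxcl1), chr5:90903799-90903898 (Cxcl2), chr5:90786001-90786100 (Cxcl3) and chr5:30013014-30013113 (Il6). Capitals mark matches to GGGNNTTTC on either strand, where N is any base and the other strand reads GAAANNCCC.
Cxcl1: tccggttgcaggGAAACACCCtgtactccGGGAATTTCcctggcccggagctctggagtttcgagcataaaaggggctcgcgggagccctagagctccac
Cxcl2: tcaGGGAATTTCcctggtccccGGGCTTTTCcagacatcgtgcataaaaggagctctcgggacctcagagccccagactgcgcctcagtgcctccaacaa
Cxcl3: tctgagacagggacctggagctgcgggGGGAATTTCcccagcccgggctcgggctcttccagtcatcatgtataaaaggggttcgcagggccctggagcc
Il6: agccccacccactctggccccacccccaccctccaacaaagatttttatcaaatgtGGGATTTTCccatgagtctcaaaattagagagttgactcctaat
The motif began 88 and 71 bases before the start in Cxcl1, 97 and 78 in Cxcl2, 73 in Cxcl3 and 44 in Il6. Among all 32851 RefSeq windows of 250 bases before a start, 1223 (3.72%) held it on either strand. By gene, 4.40% of the 10392 genes tested that have a window held it, against 5.62% of 1441 genes called lower and 4.82% of 933 called higher. Among genes called lower that have a window, it was held by 5 of 7 CXC and CX3C chemokine and receptor genes, 1 of 7 CC chemokine and receptor genes and 3 of 19 genes of the interleukin 1, interleukin 6 and tumour necrosis factor families. The CXC matches include those of Cxcl1, Cxcl2 and Cxcl3, neighbours in the same cluster, so they are not independent, and enrichment was not tested. A match describes the letters of the window and does not show that the site is bound.

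Cxcl3 stood at -1.67 and -0.02 log2 CPM in the rivaroxaban libraries and at 5.26 and 4.19 in the dabigatran libraries (-5.57 ± 0.67, adjusted p = 0.00066). Cxcl2 stood at -0.51 and 0.21 log2 CPM with rivaroxaban and at 4.28 and 4.32 with dabigatran (-4.45 ± 0.49, adjusted p = 0.000521). Cxcl1 stood at 1.29 and 1.67 log2 CPM with rivaroxaban and at 5.47 and 3.84 with dabigatran (-3.17 ± 0.55, adjusted p = 0.00335). For Cxcl2 the untreated libraries, at 3.94 and 3.95 log2 CPM, lay near the dabigatran ones and the sham libraries, at 0.99 to 2.07, lay between the 2 drugs. Cxcl5, another ligand of Cxcr2, was lower by -2.93 ± 0.67 (adjusted p = 0.0125), but its adjusted p was 0.121 without Dabi-202 and 0.113 without Riva-313.

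**Figure D2:**
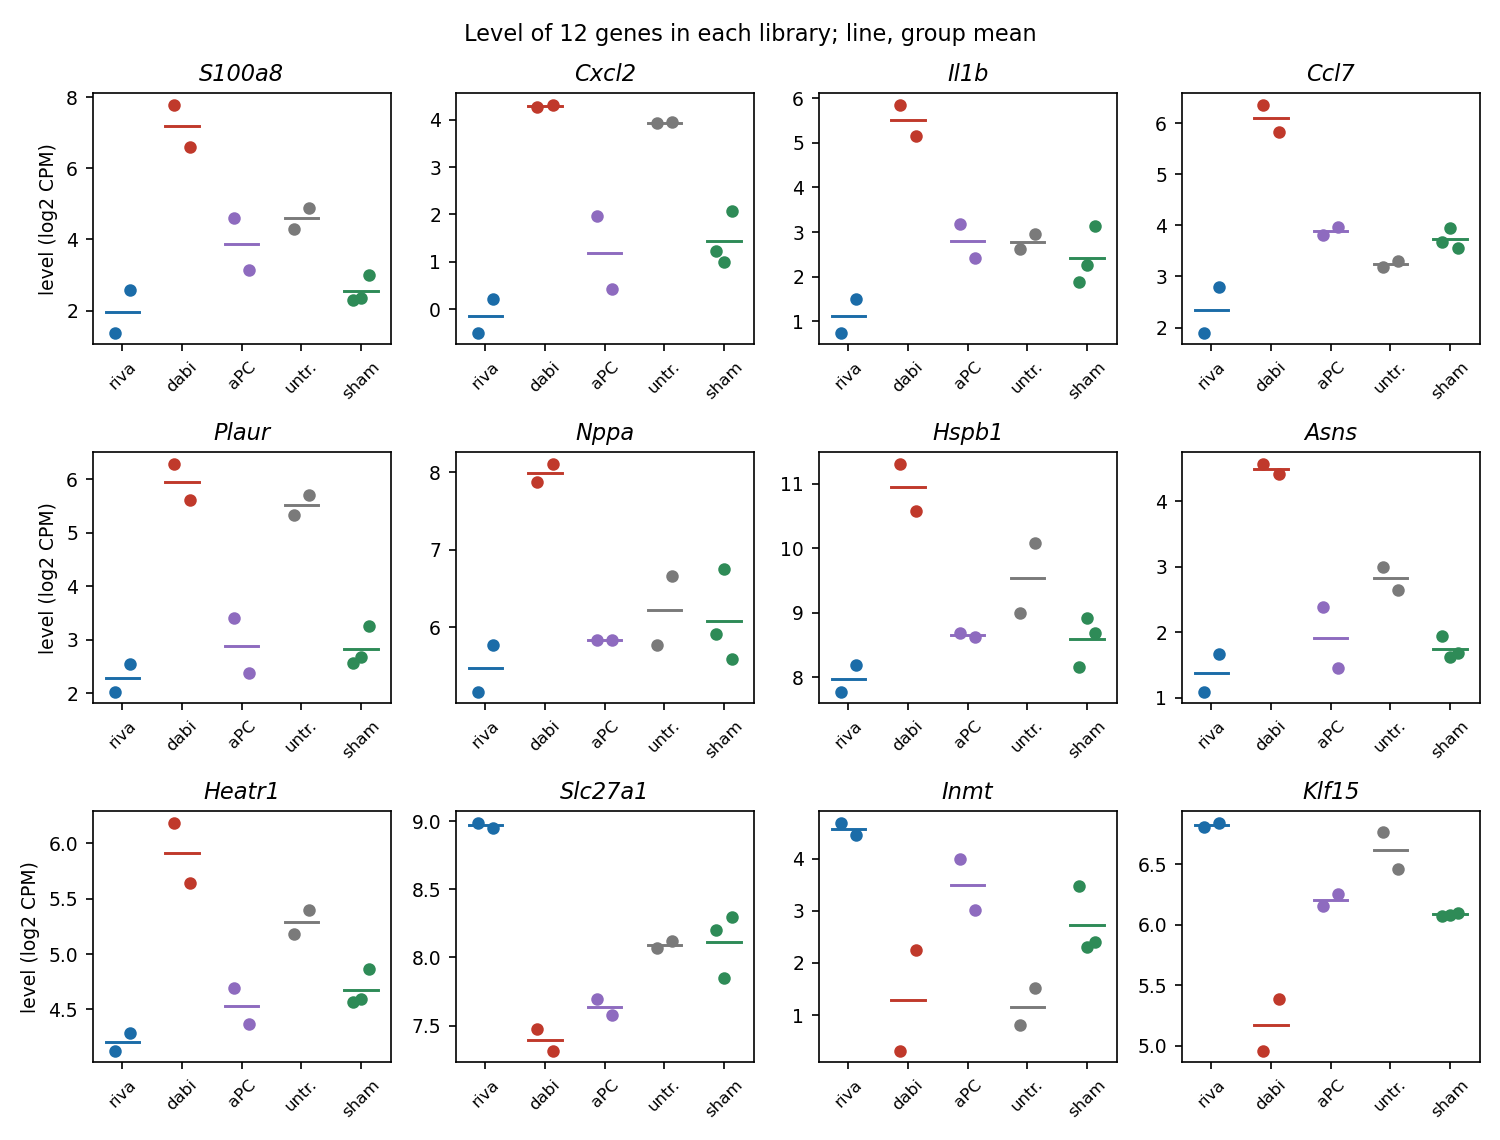
Level in log2 CPM of 12 genes in each of the 11 libraries, by group (rivaroxaban, dabigatran, aPC, untreated, sham), with a point for each library and a line at the group mean; each panel has its own axis. In all 12 panels the rivaroxaban and dabigatran points do not overlap, which holds for all called genes and for 70.0% of all genes tested. Ccl7, for example, lies at 1.90 and 2.79 with rivaroxaban and at 6.36 and 5.83 with dabigatran.

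Monocyte and recruited macrophage markers were lower with rivaroxaban in 18 of 26 and higher in 0, with a median of -2.01. Itgam, the integrin chain CD11b, stood at 4.76 and 5.03 log2 CPM with rivaroxaban and at 7.72 and 7.39 with dabigatran (-2.66 ± 0.24, adjusted p = 0.000275). Cd14, a co-receptor for bacterial lipopolysaccharide, was lower by -2.92 ± 0.30 and the pattern recognition receptor Clec4e by -4.05 ± 0.48. Ccr2, the receptor that brings inflammatory monocytes out of the bone marrow, stood at 3.23 and 4.19 log2 CPM with rivaroxaban and at 5.43 and 5.84 with dabigatran (-1.93 ± 0.34, adjusted p = 0.0039). Spp1, osteopontin, made by macrophages of healing infarcts, was lower by -3.86 ± 0.69 (adjusted p = 0.00391). The summed level of the 26 markers was 284 and 490 CPM with rivaroxaban and 1866 and 1928 CPM with dabigatran. The untreated libraries, at 487 and 395 CPM, and the sham libraries, at 402 to 511 CPM, lay near the rivaroxaban ones and far below both dabigatran libraries.

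CC chemokines and their receptors were lower in 10 of 13 and higher in 0, with a median of -2.31. Ccl7, which attracts monocytes through Ccr2, stood at 1.90 and 2.79 log2 CPM in the rivaroxaban libraries and at 6.36 and 5.83 in the dabigatran libraries, a 13.5-fold difference (-3.75 ± 0.29, adjusted p = 0.000249). Ccl12, another monocyte attractant of the mouse, was lower by -2.47 ± 0.39 and the receptor Ccr1 by -3.25 ± 0.38. Ccl24, an attractant of eosinophils, was lower by -2.31 ± 0.33. Ligands and receptors thus moved in the same direction. Ccl2 was not analysed here.

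Resident cardiac macrophage markers were called in 15.0%, below the 23.3% of all genes tested. Of 20 tested, 2 were lower and 1 higher, with a median of -0.22. Timd4, a marker of long-lived resident macrophages, stood at 1.83 and 0.31 log2 CPM with rivaroxaban and at 0.44 and 1.57 with dabigatran (0.07 ± 0.48, adjusted p = 0.94). Lyve1 stood at 4.81 and 4.54 log2 CPM with rivaroxaban and at 5.33 and 4.83 with dabigatran (-0.41 ± 0.29, adjusted p = 0.348). The libraries of the 2 drugs overlapped for Timd4. The count of called members was 0 without Riva-313 or Riva-319, 1 without Dabi-202 or sham replicate 006 and 5 without either untreated library.

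**Figure D3:**
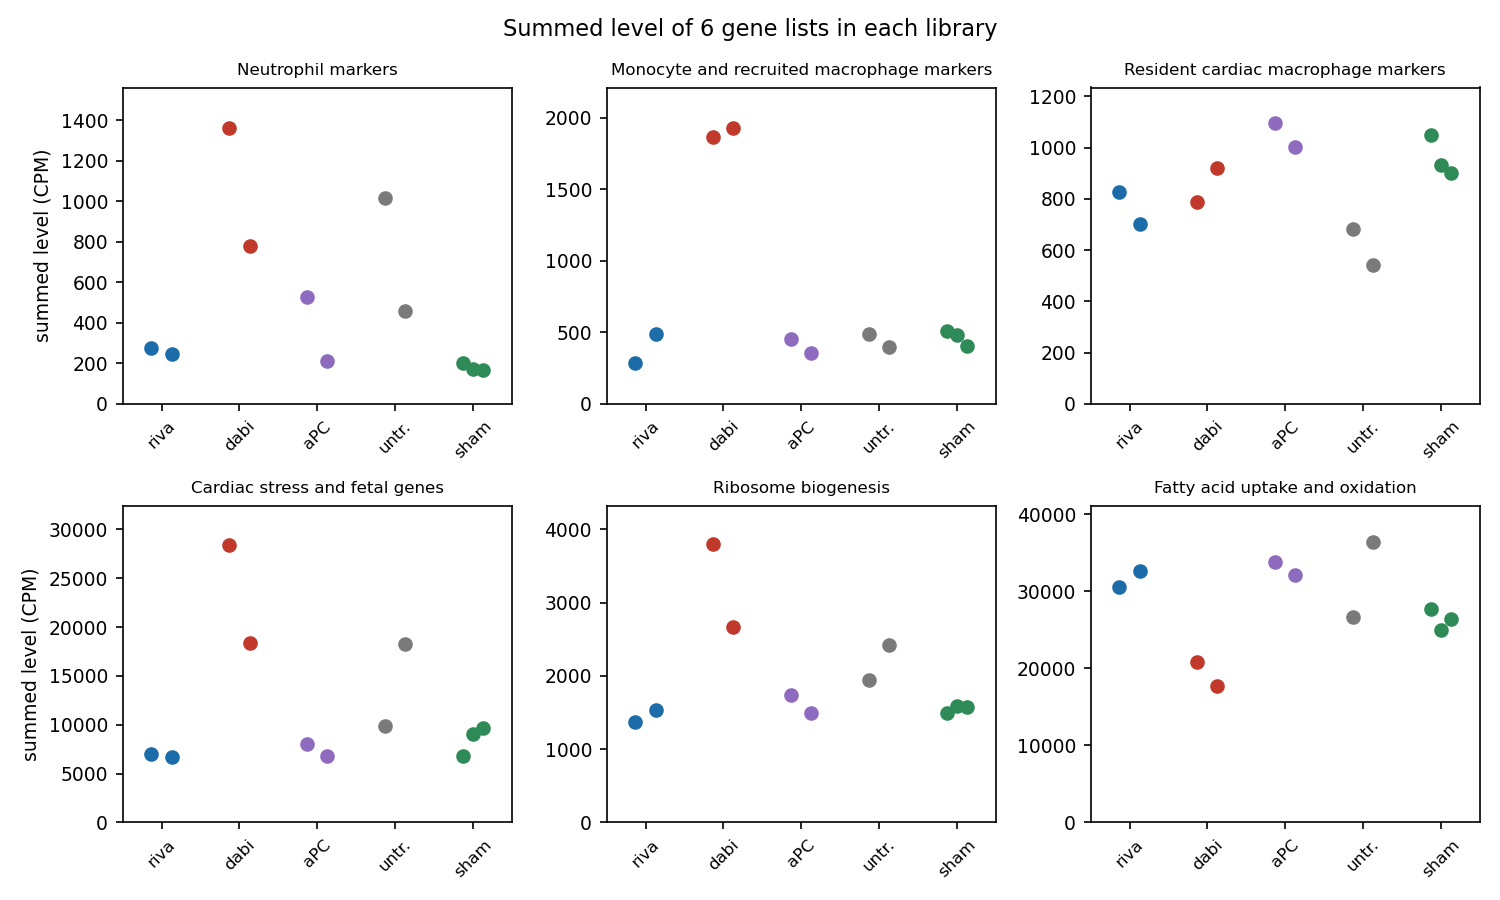
Summed CPM of the listed members of 6 gene lists in each of the 11 libraries, by group (rivaroxaban, dabigatran, aPC, untreated, sham), on linear axes that start at 0. Neutrophil markers sum to 276 and 245 CPM with rivaroxaban and 1360 and 780 CPM with dabigatran, monocyte markers do not overlap either, and resident macrophage markers, at 826 and 702 CPM with rivaroxaban and 788 and 922 CPM with dabigatran, overlap.

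Cytokines of the interleukin 1, interleukin 6 and tumour necrosis factor families were lower with rivaroxaban in 21 of 32 and higher in 1, with a median of -1.40. The lower count was 11 without Dabi-202 and 13 without Riva-313, and the member that was higher was not called in either. Il1b, interleukin 1 beta, stood at 0.73 and 1.50 log2 CPM in the rivaroxaban libraries and at 5.85 and 5.16 in the dabigatran libraries (-4.39 ± 0.45, adjusted p = 0.000423). Nlrp3, the sensor of the inflammasome that releases mature interleukin 1 beta, was lower by -3.41 ± 0.38. Il1rn, the natural antagonist of the interleukin 1 receptor, was lower as well, by -5.16 ± 0.47 (adjusted p = 0.000314), as was Il1f9, interleukin 36 gamma, by -4.71 ± 0.51. Agonist, sensor and antagonist of the interleukin 1 system therefore differed in the same direction.

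Il6 stood at -1.67 and -0.02 log2 CPM with rivaroxaban and at 4.68 and 2.82 with dabigatran (-4.60 ± 0.76, adjusted p = 0.00271), with untreated libraries at 1.77 and 2.97 and sham libraries at -0.58 to 1.02. Ltb, lymphotoxin beta, was lower by -4.12 ± 0.55, and Tnfrsf1b, a receptor for tumour necrosis factor, by -1.11 ± 0.15. Tnf itself stood at -1.38 and -1.76 log2 CPM with rivaroxaban and at 2.16 and 0.86 with dabigatran (-3.08 ± 0.56, adjusted p = 0.0042), and its adjusted p was 0.0529 without Dabi-202.

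Among 24 NF-kappa B subunits, inhibitors and targets, 14 were lower and 0 higher, with a median of -0.77. The count was 6, 7 and 9 without Dabi-202, Riva-313 and Riva-319. Sele, E-selectin, by which activated endothelium holds leukocytes, stood at 0.13 and 0.84 log2 CPM with rivaroxaban and at 3.98 and 3.56 with dabigatran (-3.29 ± 0.32, adjusted p = 0.00037). Ptgs2, the inducible cyclooxygenase, was lower by -3.68 ± 0.54, the subunit gene Relb by -1.14 ± 0.18 and the regulators Bcl3 and Nfkbiz by -1.79 ± 0.27 and -1.57 ± 0.26. For Sele, Bcl3, Relb and Nfkbiz the untreated libraries lay closer to the dabigatran mean than to the rivaroxaban mean, with Relb at 4.93 and 4.67 log2 CPM.

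Receptors of complement fragments were lower while the list as a whole was mixed. Of 21 complement genes, 6 were lower and 5 higher, with a median of -0.03, and the higher count was 0 without Dabi-202 or Riva-319 and 3 without Riva-313. C5ar1 and C3ar1, receptors for the fragments C5a and C3a, were lower by -1.93 ± 0.19 and -1.34 ± 0.18, and Itgb2, a chain of complement receptor 3, by -2.43 ± 0.21. These are carried by myeloid cells, whose markers differed in the same direction. Interferon-stimulated genes had 1 lower and 1 higher of 29 (6.9% called, against 23.3% of all genes tested), with a median of 0.38. Their counts moved with the setting: 0 were called without Dabi-202 or Riva-313, 1 higher and 0 lower without Riva-319, 5 higher and 1 lower without either untreated library, and 3 and 1 without sham replicate 003.

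Genes of coagulation, fibrinolysis and the protease-activated receptors are the targets and partners of the drugs. Of 23 tested, 10 were lower with rivaroxaban and 1 higher, with a median of -0.88. The counts were 5 lower and 0 higher without Dabi-202, 6 and 0 without Riva-313 and 9 and 0 without Riva-319. Several of the lower genes belong to the plasminogen system, which dissolves fibrin. Plaur, the urokinase receptor, stood at 2.03 and 2.54 log2 CPM with rivaroxaban and at 6.29 and 5.62 with dabigatran (-3.67 ± 0.37, adjusted p = 0.000423). Plau, urokinase itself, stood at 2.45 and 2.74 log2 CPM with rivaroxaban and at 4.84 and 5.07 with dabigatran (-2.36 ± 0.29, adjusted p = 0.000689). Anxa2, a cell surface docking protein of plasminogen, was lower by -2.23 ± 0.26. Activator and receptor were thus both lower with rivaroxaban, while tissue plasminogen activator, Plat, did not pass (-0.36 ± 0.22, adjusted p = 0.258).

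The gene of the protease that rivaroxaban inhibits was lower with rivaroxaban. F10, factor X, stood at -0.37 and 1.31 log2 CPM in the rivaroxaban libraries and at 4.82 and 3.69 in the dabigatran libraries (-3.79 ± 0.60, adjusted p = 0.00225), with sham libraries at 1.60 to 1.91. Tfpi2, an inhibitor of serine proteases, was lower by -2.61 ± 0.45. Factor X is made mainly in the liver and also by macrophages, and the RNA level in the heart says nothing of the plasma protein. Procr, the endothelial protein C receptor, was lower by -1.78 ± 0.39 (adjusted p = 0.0105, or 0.107 without Dabi-202 and 0.0861 without Riva-313). Thbd, thrombomodulin, stood at 6.38 and 6.38 log2 CPM with rivaroxaban and at 8.11 and 6.72 with dabigatran (-1.03 ± 0.33, adjusted p = 0.0477). That call held in only 3 of the 11 fits without 1 library, with adjusted p up to 0.271, without Dabi-202.

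The receptors did not pass. F2r, protease-activated receptor 1 and the main thrombin receptor, stood at 4.81 and 5.11 log2 CPM with rivaroxaban and at 4.98 and 5.27 with dabigatran (-0.16 ± 0.19, adjusted p = 0.582). F2rl1, receptor 2, which factor Xa can cleave, stood at -0.12 and 0.50 log2 CPM with rivaroxaban and at 1.00 and 1.23 with dabigatran (-0.93 ± 0.44, adjusted p = 0.155). F2rl3, receptor 4, differed by 0.03 ± 0.43 (adjusted p = 0.973), and tissue factor, F3, by 0.30 ± 0.25 (adjusted p = 0.42). The 95% confidence interval of the F2r difference ran from -0.59 to 0.27 on the log2 scale.

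Stress genes of the heart muscle were lower with rivaroxaban. Of 18 cardiac stress and fetal genes, 14 were lower and 0 higher, with a median of -2.51, and the count was 8 without Dabi-202 and 9 without Riva-313. Nppa, atrial natriuretic peptide, stood at 5.16 and 5.77 log2 CPM with rivaroxaban and at 7.87 and 8.11 with dabigatran (-2.52 ± 0.37, adjusted p = 0.00167). Ankrd1, a stretch-responsive protein of the sarcomere, stood at 10.84 and 11.03 log2 CPM with rivaroxaban and at 13.32 and 12.58 with dabigatran (-2.01 ± 0.30, adjusted p = 0.0017). Xirp2, which organises actin at the intercalated disc, was lower by -2.42 ± 0.27, the LIM protein gene Fhl1 by -2.65 ± 0.33 and the calcineurin-responsive gene Rcan1 by -2.49 ± 0.31. Gdf15, a secreted marker of tissue stress, stood at -1.25 and 0.02 log2 CPM with rivaroxaban and at 6.28 and 3.47 with dabigatran (-5.49 ± 0.94, adjusted p = 0.00325).

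Nppb, B-type natriuretic peptide, stood at 6.17 and 5.63 log2 CPM with rivaroxaban and at 10.94 and 9.68 with dabigatran, and the untreated libraries spread widely, at 5.06 and 9.31. It was lower with rivaroxaban (-4.41 ± 1.07, adjusted p = 0.0155), and its adjusted p was 0.137, 0.0731 and 0.0849 without Dabi-202, Riva-313 and Riva-319. The summed level of the 19 listed stress genes was 6987 and 6641 CPM with rivaroxaban and 28360 and 18400 CPM with dabigatran, against 9843 and 18230 CPM in untreated and 6824 to 9633 CPM in sham libraries. The major myosins did not pass: Myh6 differed by 0.49 ± 0.27 (adjusted p = 0.224) and Myh7 by 0.76 ± 0.33 (adjusted p = 0.126).

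Cytosolic heat shock chaperones were lower in 9 of 22 and higher in 0, with a median of -0.60, and the count was 4, 4 and 5 without Dabi-202, Riva-313 and Riva-319. Hspb1, the small chaperone that protects the cytoskeleton, stood at 7.77 and 8.18 log2 CPM with rivaroxaban and at 11.30 and 10.58 with dabigatran (-2.96 ± 0.36, adjusted p = 0.000676). Cryab, alpha B-crystallin, was lower by -1.22 ± 0.21 and Hsp90aa1, an inducible HSP90 gene, by -1.86 ± 0.33. Hspa1b, an inducible HSP70 gene, was lower by -4.44 ± 0.73 (adjusted p = 0.00268), but its copy Hspa1a is near-identical, so how their reads were divided is uncertain. Endoplasmic reticulum chaperones had 2 lower and 0 higher of 25 (8.0% called, against 23.3% of all genes tested), with a median of -0.57. That count was 0 without Dabi-202, Riva-313 or Riva-319, 5 without either untreated library, and 1 and 6 without sham replicates 006 and 007.

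Immediate-early genes, transcription factors and phosphatases induced within minutes of a stimulus, were lower in 15 of 31 and higher in 0, with a median of -1.39. The count was 8 without Dabi-202 and 9 without Riva-313. Egr2 stood at -0.83 and 0.21 log2 CPM with rivaroxaban and at 3.55 and 2.82 with dabigatran (-3.49 ± 0.40, adjusted p = 0.000592). Fosl1, a partner of Jun in AP-1, was lower by -2.19 ± 0.31. Dusp5 and Dusp6, feedback phosphatases of the kinase ERK, were lower by -2.70 ± 0.32 and -1.03 ± 0.17. Myc, a driver of ribosome production and growth, stood at 2.63 and 3.25 log2 CPM with rivaroxaban and at 5.83 and 4.83 with dabigatran (-2.39 ± 0.36, adjusted p = 0.00182), with sham libraries at 2.52 to 2.83.

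Ribosome biogenesis genes were lower with rivaroxaban. Of 36 genes tested, 31 were lower and 0 higher, all 36 fold changes were negative, and the median was -1.07. The count was 17 without Dabi-202 and 17 without Riva-313. Heatr1, needed for transcription of ribosomal RNA, stood at 4.13 and 4.29 log2 CPM with rivaroxaban and at 6.18 and 5.64 with dabigatran (-1.70 ± 0.21, adjusted p = 0.000689). Ddx21, a nucleolar RNA helicase, stood at 6.07 and 6.17 log2 CPM with rivaroxaban and at 7.85 and 7.36 with dabigatran (-1.48 ± 0.20, adjusted p = 0.000935). Nop16, Utp20 and Mybbp1a, all nucleolar proteins, were lower by -1.55 ± 0.20, -1.18 ± 0.15 and -1.16 ± 0.15. The summed level was 1370 and 1535 CPM with rivaroxaban and 3806 and 2664 CPM with dabigatran, with untreated libraries at 1949 and 2428 CPM and sham libraries at 1497 to 1589 CPM.

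Cytosolic ribosomal proteins were lower in 27 of 38 and higher in 0, with smaller differences and a median of -0.57. Rpl3 stood at 7.84 and 7.79 log2 CPM with rivaroxaban and at 9.19 and 8.92 with dabigatran (-1.24 ± 0.20, adjusted p = 0.0023). The count was 1, 1 and 3 without Dabi-202, Riva-313 and Riva-319 and 9 when libraries were centred on their median. Many ribosomal protein genes have processed copies elsewhere in the genome, so the counting of their reads is uncertain.

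The integrated stress response, by which cells short of amino acids or under other strain raise the transcription factor ATF4, had 12 of 24 genes lower and 3 higher, with a median of -1.09. The counts were 7 lower and 1 higher without Dabi-202, 6 and 3 without Riva-313 and 10 and 1 without Riva-319. Asns, asparagine synthetase, stood at 1.09 and 1.66 log2 CPM with rivaroxaban and at 4.57 and 4.41 with dabigatran (-3.12 ± 0.33, adjusted p = 0.000469). Psat1 of serine synthesis stood at 2.89 and 3.10 log2 CPM with rivaroxaban and at 5.53 and 4.94 with dabigatran (-2.24 ± 0.26, adjusted p = 0.000624). Mthfd2 of mitochondrial folate metabolism was lower by -2.76 ± 0.34 and the cystine importer Slc7a11 by -2.24 ± 0.30. Vldlr, a lipoprotein receptor, was one of the 3 that were higher (1.45 ± 0.21, adjusted p = 0.00152).

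Matrix and repair genes divided. Of 26 matricellular repair proteins, 12 were lower and 3 higher, with a median of -0.79, and the counts were 8 and 0 without Dabi-202, 9 and 0 without Riva-313 and 10 and 1 without Riva-319. Tnc, tenascin C, which appears at the border of healing infarcts, stood at 0.43 and 2.93 log2 CPM with rivaroxaban and at 6.34 and 7.17 with dabigatran (-5.08 ± 0.67, adjusted p = 0.00093). Thbs1, thrombospondin 1, was lower by -3.40 ± 0.43, fibronectin (Fn1) by -2.06 ± 0.29 and Wisp1, a target of Wnt signalling, by -2.94 ± 0.40. Matrix proteases and inhibitors had 13 of 26 lower and 3 higher, with a median of -0.97, or 8 and 0 without Dabi-202 or Riva-313, 10 and 0 without Riva-319 and 13 and 1 without sham replicate 003. Adamts4, a protease of proteoglycans, averaged 0.76 ± 0.82 log2 CPM with rivaroxaban and 5.20 ± 0.29 with dabigatran (SD, n = 2 each), with a log2 fold change of -4.45 ± 0.36 (limma, adjusted p = 0.000249), and the untreated libraries stood near the dabigatran mean at 5.57 and 5.06.

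Collagens and their processing enzymes had 10 of 32 lower and 2 higher, with a median of -0.40. The basement membrane collagens Col4a1 and Col4a2, which share a promoter region, were lower by -0.87 ± 0.15 and -0.84 ± 0.14, and the collagen chaperone Serpinh1 by -1.31 ± 0.23. Col1a1, the main fibrillar collagen, stood at 7.41 and 7.57 log2 CPM with rivaroxaban and at 6.28 and 7.81 with dabigatran (0.44 ± 0.43, adjusted p = 0.492), where the libraries overlapped, and its adjusted p was 0.0320 without Dabi-204. Postn, periostin, was lower by -1.58 ± 0.46 (adjusted p = 0.0317), and its adjusted p was 0.164, 0.081, 0.216 and 0.0523 without Dabi-202, Dabi-204, Riva-313 and Riva-319. The counts for the list were 7 lower and 0 higher without Dabi-202, 6 and 0 when either rivaroxaban library was left out, 8 and 0 without sham replicate 003 and 5 and 6 without Dabi-204, so its balance rested on Dabi-204. Fibroblast identity genes had 2 lower and 4 higher of 19, with a median of 0.21, or 2 and 1 without Dabi-202, 1 and 1 without Riva-313 and 2 and 7 without either untreated library.

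Of 30 genes of transforming growth factor beta and activin signalling, 12 were lower and 3 higher, with a median of -0.54, or 6 and 1 without Dabi-202 and 8 and 1 without Riva-313. Inhba, the subunit of activin A, stood at -1.38 and -0.07 log2 CPM with rivaroxaban and at 4.57 and 4.21 with dabigatran (-5.11 ± 0.45, adjusted p = 0.000261). Fstl3, a secreted antagonist of activin, was lower too, by -2.32 ± 0.30, as were the ligand Tgfb2 by -1.72 ± 0.29 and the latent complex protein Ltbp2 by -2.75 ± 0.41. Ligand and antagonist of the activin system both differed in the same direction.

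**Figure D4:**
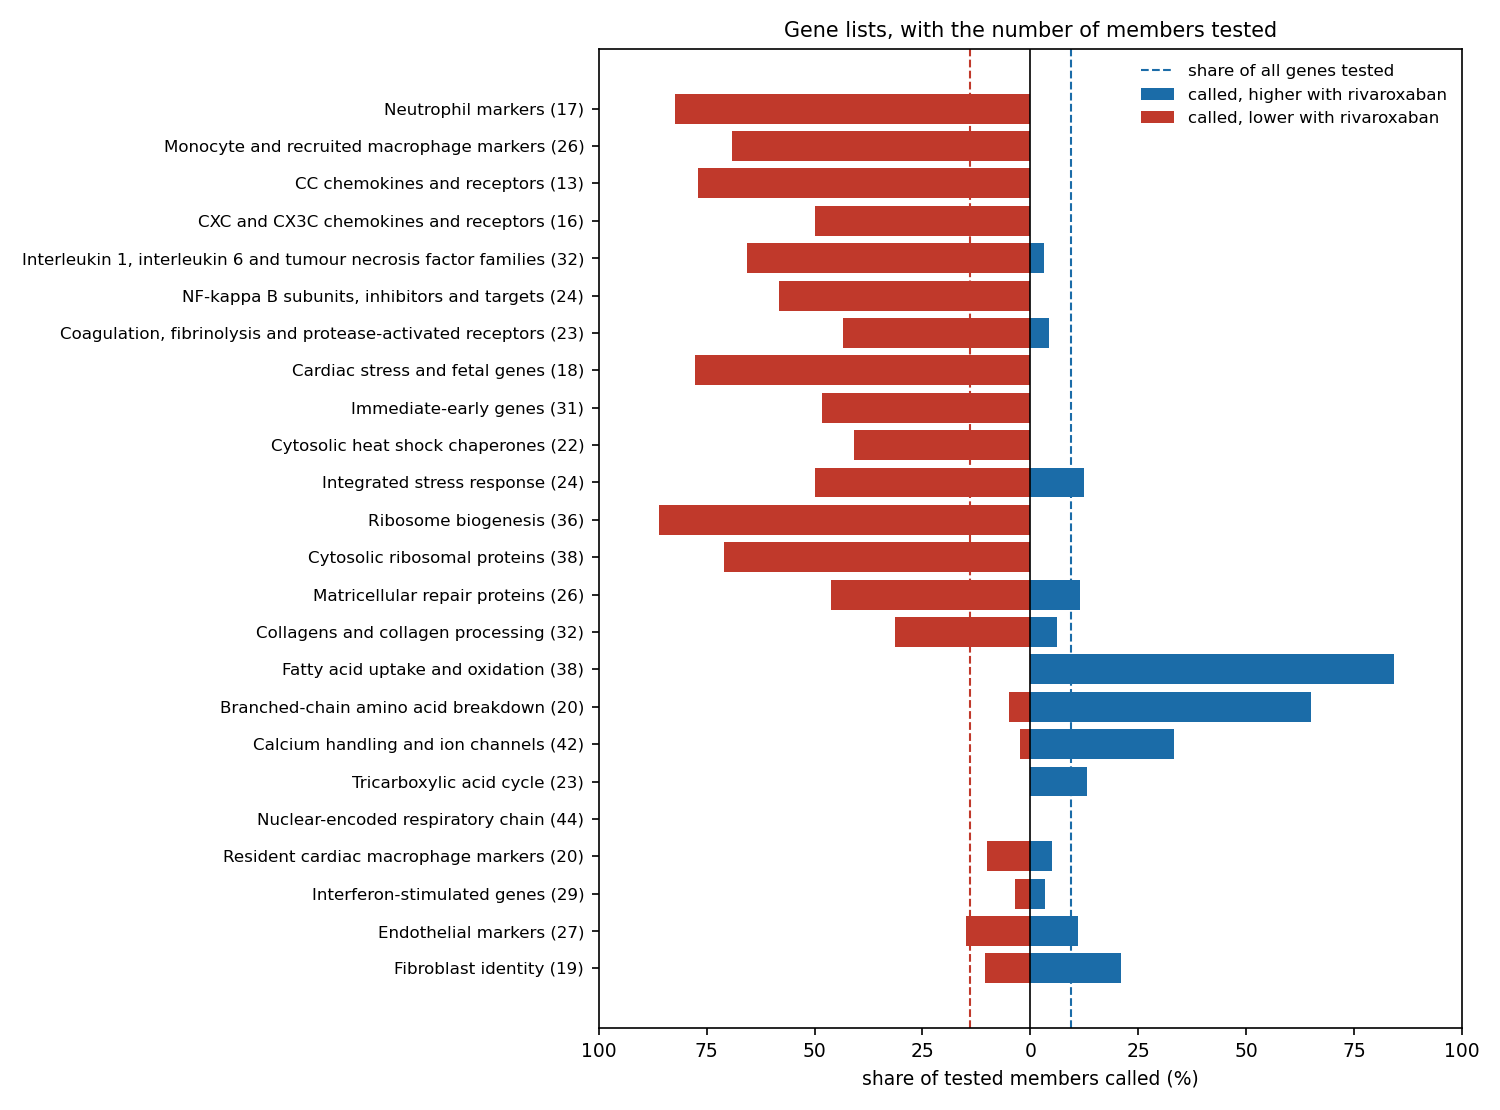
Share of the tested members of 24 gene lists that were called higher (blue, to the right) or lower (red, to the left) with rivaroxaban, in percent, with the number tested in parentheses; dashed lines mark the shares over all genes tested, 9.39% higher and 14.0% lower. Myeloid, chemokine, stress and ribosome biogenesis lists extend to the left, fatty acid and branched-chain amino acid lists extend to the right, and the respiratory chain has no bar.

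Fatty acid uptake and oxidation was the list with most members higher with rivaroxaban. Of 38 genes tested, 32 were higher and 0 lower, with a median of 0.77. The count was 20 without Dabi-204, and 17 when either rivaroxaban library was left out. Slc27a1, a fatty acid transporter, stood at 8.99 and 8.95 log2 CPM in the rivaroxaban libraries and at 7.48 and 7.31 in the dabigatran libraries, a 2.98-fold difference (1.57 ± 0.15, adjusted p = 0.00037). Cpt2, the carnitine palmitoyltransferase of the inner mitochondrial membrane, stood at 8.03 and 8.20 log2 CPM with rivaroxaban and at 6.84 and 6.96 with dabigatran (1.21 ± 0.13, adjusted p = 0.000491). Mlycd removes malonyl-CoA, the inhibitor of fatty acid entry into mitochondria, and was higher by 1.42 ± 0.17 (adjusted p = 0.000662). Slc27a1, Cpt2 and Mlycd were thus all higher, and their libraries did not overlap, as in all called genes.

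Acot1, a thioesterase that frees fatty acids from coenzyme A, was higher by 2.33 ± 0.35, though its reads may be shared with the similar gene Acot2. Acsm5, an acyl-CoA synthetase outside the list, was higher by 2.48 ± 0.36. Ucp3, an uncoupling protein linked to fatty acid use, was higher by 2.58 ± 0.62 (adjusted p = 0.0153), and its adjusted p was 0.0569, 0.072 and 0.105 without Dabi-202, Dabi-204 and Riva-319. The summed level of the 38 genes was 30620 and 32600 CPM with rivaroxaban and 20880 and 17770 CPM with dabigatran, with untreated libraries at 26620 and 36420 CPM and sham libraries at 25030 to 27720 CPM. Pdk4, a kinase that holds back glucose oxidation, did not pass, at 9.50 and 10.18 log2 CPM with rivaroxaban and 10.19 and 7.51 with dabigatran (0.99 ± 1.05, adjusted p = 0.535), where the dabigatran libraries differed from each other more than the group means did.

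Regulators of energy metabolism had 8 of 22 higher and 0 lower, with a median of 0.41, and the count was 1, 1 and 2 without Dabi-202, Riva-313 and Riva-319. The member called in every fit was Klf15, a transcription factor of cardiac lipid and amino acid metabolism. It stood at 6.81 and 6.84 log2 CPM with rivaroxaban and at 4.96 and 5.39 with dabigatran (1.65 ± 0.16, adjusted p = 0.00037). Ppargc1a, the coactivator PGC-1 alpha, was higher by 0.84 ± 0.26 (adjusted p = 0.0414), and its adjusted p was 0.328 without Dabi-202, 0.277 without Riva-313 and between 0.0538 and 0.061 without Riva-319, either aPC library or any 1 sham library. Ppara did not pass (0.74 ± 0.33, adjusted p = 0.135, or 0.0462 and 0.0460 without untreated replicates 17 and 19).

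Branched-chain amino acid breakdown had 13 of 20 higher and 1 lower, with a median of 0.52. The counts were 2, 3 and 5 higher without Dabi-202, Riva-313 and Riva-319, with 1 lower in each. Ivd, a dehydrogenase of leucine breakdown, was higher by 0.83 ± 0.13 (adjusted p = 0.00214) and Bckdha, a subunit of the complex that commits these amino acids to breakdown, by 0.67 ± 0.13 (adjusted p = 0.00503). The member that was lower was Bcat1, the cytosolic aminotransferase, at 1.11 and 1.19 log2 CPM with rivaroxaban and 3.74 and 3.58 with dabigatran (-2.51 ± 0.33, adjusted p = 0.000928). It acts at the first step of the pathway and outside the mitochondrion.

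The machinery downstream of fatty acid oxidation had smaller fold changes. Of 23 tricarboxylic acid cycle genes, 3 were higher and 0 lower, with a median of 0.27. That count dropped to 0 with Riva-313 left out and to 1 with Riva-319 left out, and was 5 without either untreated library and 7 and 6 after median centring and quantile normalization. Of 44 nuclear-encoded respiratory chain genes, limma-trend called 0, with 3 at an unadjusted p under 0.05, a median of 0.17 and fold changes between -0.11 and 0.36. Limma-voom on rebuilt reads also called 0, and 1 and 3 were called, all higher, after median centring and quantile normalization. The largest rise of the respiratory chain lay below the median of the fatty acid list.

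Glycolysis, glucose uptake and lactate genes had 11 of 27 lower and 2 higher, with a median of -0.38. The counts were 5 and 1 without Dabi-202 or Riva-313, 6 and 1 without Riva-319 and 11 and 4 without either untreated library. Slc2a1, the glucose transporter GLUT1, stood at 3.45 and 3.18 log2 CPM with rivaroxaban and at 5.47 and 4.97 with dabigatran (-1.90 ± 0.23, adjusted p = 0.000689). Slc16a3, a lactate exporter, was lower by -2.87 ± 0.29 and enolase 1 (Eno1) by -1.26 ± 0.14. Hk3, the hexokinase of myeloid cells, was lower by -2.10 ± 0.23. Pfkfb1, a regulator of glycolytic flux, was higher by 1.96 ± 0.31 (adjusted p = 0.00213).

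Large rises outside these lists included Inmt, a methyltransferase of tryptamine and other amines. It stood at 4.69 and 4.45 log2 CPM with rivaroxaban and at 0.31 and 2.25 with dabigatran (3.29 ± 0.61, adjusted p = 0.00452). Lgals4, galectin 4, a lectin known mainly from the gut, stood at 7.06 and 7.75 log2 CPM with rivaroxaban and at 4.68 and 4.78 with dabigatran (2.68 ± 0.34, adjusted p = 0.000787). The rivaroxaban libraries lay above all sham and untreated libraries for both genes.

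**Figure D5:**
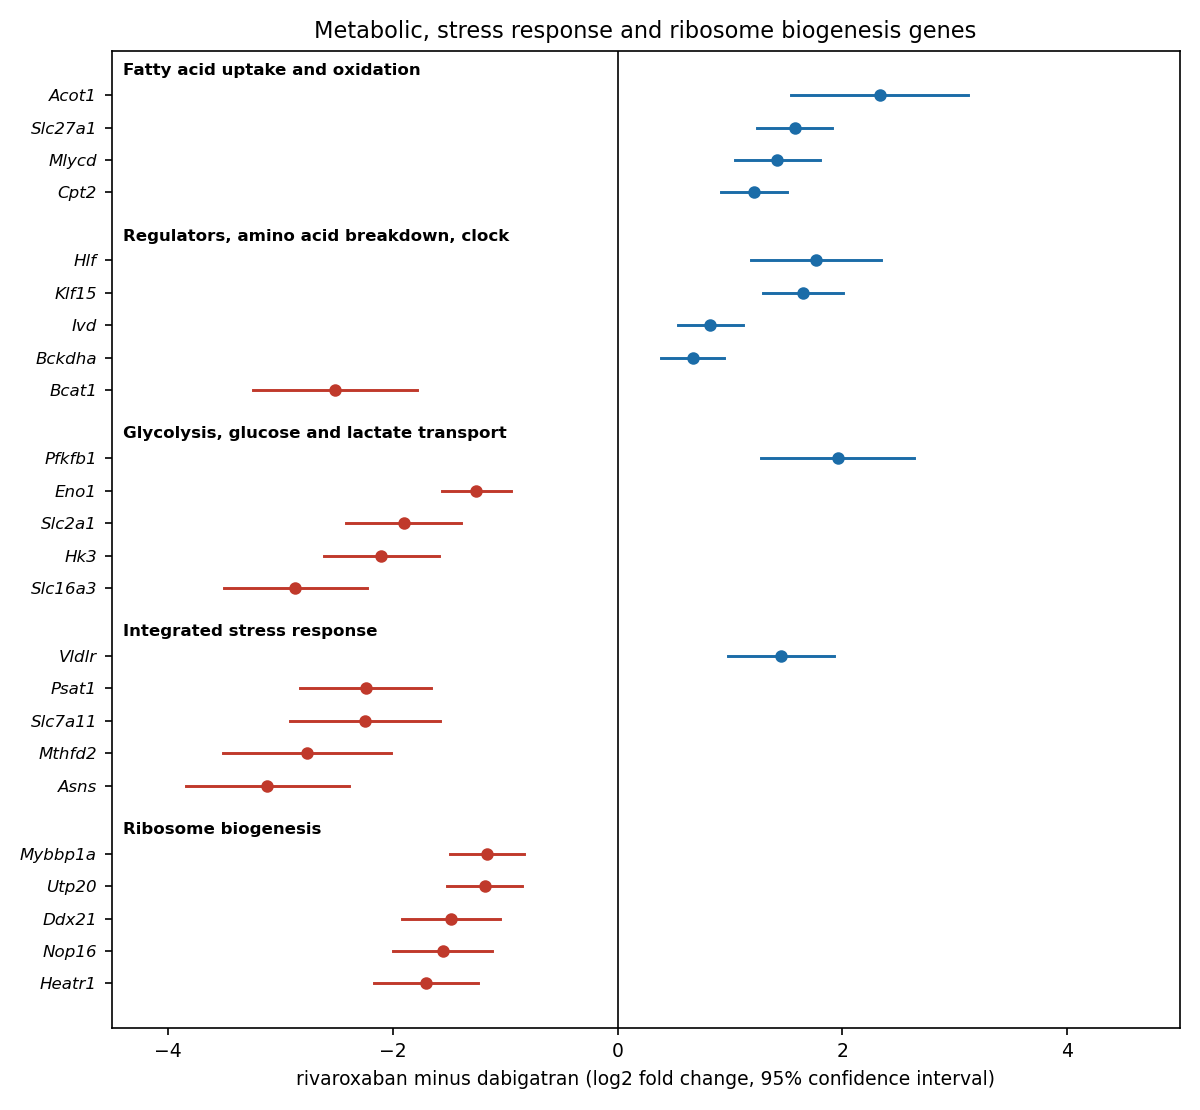
Log2 fold change (rivaroxaban minus dabigatran) of 24 named genes with 95% confidence intervals, in 5 groups; points right of the line at 0 were higher with rivaroxaban. The fatty acid genes lie to the right, between 1.21 and 2.33, the ribosome biogenesis genes to the left, between -1.70 and -1.16, and Bcat1, Pfkfb1 and Vldlr lie apart from the other genes of their groups.

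Calcium handling and ion channel genes had 14 of 42 higher and 1 lower, with a median of 0.51. The counts were 2 and 0 without Dabi-202 or Riva-313 and 6 and 0 without Riva-319. Adra1b, an alpha-1 adrenergic receptor, was higher by 1.16 ± 0.16 (adjusted p = 0.00106). Kcnv2, a modifier subunit of potassium channels, is not a member of this list. It stood at 3.76 and 3.44 log2 CPM with rivaroxaban and at 0.79 and 1.15 with dabigatran (2.63 ± 0.40, adjusted p = 0.0019). Atp2a2, the calcium pump of the sarcoplasmic reticulum, stood at 14.03 and 13.93 log2 CPM with rivaroxaban and at 13.13 and 13.37 with dabigatran (0.73 ± 0.20, adjusted p = 0.0231), and its adjusted p was 0.147, 0.147 and 0.0913 without Dabi-202, Riva-313 and Riva-319. Sarcomere genes had 4 lower and 4 higher of 25, with a median of 0.33. Those counts were 3 and 0 without Dabi-202, 3 and 1 without Riva-313 and 3 and 2 without Riva-319.

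The hormone and clock lists held called genes in both directions. Of 20 renin-angiotensin, adrenergic and natriuretic receptor genes, 5 were lower and 7 higher, with a median of 0.20, or 2 and 3 without Dabi-202, Riva-313 or Riva-319. Agtr1a, the angiotensin II receptor type 1a, was higher by 1.08 ± 0.19, and the vasoconstrictor gene Edn1, endothelin 1, was lower by -1.98 ± 0.31. Clock genes had 2 lower and 5 higher of 17, with a median of 0.73, or 0 and 1 without Dabi-202 or Riva-313, 1 and 2 without Riva-319 and 5 and 9 or 10 without untreated replicate 17 or 19. Hlf, an output gene of the circadian clock, stood at 5.48 and 5.46 log2 CPM with rivaroxaban and at 3.31 and 4.11 with dabigatran (1.76 ± 0.26, adjusted p = 0.00167). Per2, a core clock repressor, did not pass (1.18 ± 0.43, adjusted p = 0.0699), although its adjusted p was 0.0380, 0.0377 and 0.0283 without untreated replicates 17 and 19 and sham replicate 006. Dbp, another output gene, did not pass (1.84 ± 0.62, adjusted p = 0.055), with adjusted p between 0.0330 and 0.0494 without Dabi-204, sham replicate 007 or any 1 aPC or untreated library. The hour of tissue collection is not in the labels.

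Of the endothelial markers tested 25.9% were called, against 23.3% of all genes tested. Endothelial markers had 4 lower and 3 higher of 27, with a median of 0.08, and 1 and 3 without Dabi-202 or Riva-313 and 6 and 6 without either untreated library. Within them Apln, apelin, was 26.0-fold lower, at 1.90 and 1.88 log2 CPM with rivaroxaban and 6.42 and 6.75 with dabigatran (-4.70 ± 0.36, adjusted p = 0.000249), while Aqp1, the water channel aquaporin 1, was higher by 1.15 ± 0.21. Smooth muscle and pericyte markers had 0 lower and 4 higher of 16, with a median of 0.34, and 1 higher without Dabi-202, Riva-313 or Riva-319 and 2 lower and 6 higher without either untreated library. With all libraries and both directions counted, the share of smooth muscle and pericyte markers called was close to the 23.3% of all genes tested. Among them Rgs5, of pericytes, stood at 9.63 and 9.57 log2 CPM with rivaroxaban and at 8.50 and 8.77 with dabigatran (0.96 ± 0.14, adjusted p = 0.00164). Adipocyte markers were higher in 4 of 6, with a median of 0.90, among them the lipases Pnpla2 (0.90 ± 0.15) and Lipe (1.51 ± 0.30), which heart muscle also expresses. Cell cycle genes had 5 lower and 1 higher of 40, with a median of -0.12, or 3 and 0 with Dabi-202 left out, 2 and 2 with Dabi-204, 1 and 0 with Riva-313, 3 and 1 with Riva-319 and 6 and 2 with either untreated library left out. The share of cell cycle genes called was 15.0%, below the 23.3% of all genes tested. Among them Ccnd1, cyclin D1, was lower by -1.72 ± 0.17.

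Set beside sham, whose 3 libraries enter both differences, the list median lay nearer to sham with rivaroxaban in 44 of 50 lists with tested members and nearer with dabigatran in 6. The lists share libraries and some genes, so this count is a description. The median log2 difference from sham of the neutrophil markers was -0.46 with rivaroxaban and 3.25 with dabigatran. For monocyte markers it was -0.30 with rivaroxaban and 1.97 with dabigatran, and for cardiac stress genes -0.33 with rivaroxaban and 2.09 with dabigatran. Ribosome biogenesis stood at -0.19 with rivaroxaban and 0.96 with dabigatran, and fatty acid genes at 0.28 with rivaroxaban and -0.50 with dabigatran. Among the lists that went the other way, resident macrophage markers stood at -0.44 with rivaroxaban and -0.13 with dabigatran, and collagens at -0.34 with rivaroxaban and 0.02 with dabigatran. Glycolysis genes stood at -0.26 with rivaroxaban and 0.05 with dabigatran, and transforming growth factor beta genes at -0.15 with rivaroxaban and 0.08 with dabigatran. Over all genes tested the medians were -0.01 with rivaroxaban and 0.01 with dabigatran. For each gene, the difference between its 2 distances is the fold change between the drugs, so these distances are not a separate result. Differences between the list medians need not equal the median fold changes given above.

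The exons of Il1b, Tnc, Nppa, Adamts4, Heatr1, Mybbp1a, Slc2a1, Pfkfb1, Hk3, Bckdha, Cryab, Fosl1, Fstl3, Ltbp2, Tgfb2, Ccnd1, Dbp, Myh7, Col4a1 and Col4a2 overlap those of another listed gene. Whether the authors' counting used the strand is not given in the sources used here, so reads of overlapping genes may be mixed.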

How the data were processed

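Polyadenylated RNA from 500 ng of total RNA per heart was sequenced with a directional kit, per the labels' protocols. The tools listed, per the submitters' processing notes, are STAR, edgeR, Trim Galore, FastQC and bcl2fastq, with build mm10. Their versions, the counting tool and whether it used the strand: not given in the sources used here. The authors deposited 1 table of TMM-normalized log2 CPM with 16658 genes and 11 libraries, and 4 of the 15 labelled samples were not analysed here. Whole reads could be rebuilt from the log2 CPM values within 0.05 of a read.

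Genes with at least 0 log2 CPM in at least 3 libraries (13541) were fitted in R 4.3.3 with limma 3.58.1 (limma-trend, 1 mean per group over all 5 groups, 11 libraries), and rivaroxaban was contrasted with dabigatran. P-values were adjusted by the Benjamini-Hochberg method over all 13541 genes, and adjusted p under 0.05 was called. The fit was also run on simulated data in which each gene had the same spread in every library. That run does not cover groups that differ in spread. With 2 libraries per group, the spread of all 5 groups sets the error. At 0 log2 CPM the 4 libraries hold 24.7 to 37.4 reads. Positions and exon overlaps are from GENCODE M21 (16654 genes matched). Named genes were the 12 largest rises and falls, up to 5 called members with the smallest p per list, and a set of genes tied to the drugs, the infarct and the heart. Tnnt2, Myl2 and Ryr2 served as a check of the tissue. The comparison, the gene lists and the named set were chosen with earlier results of these data known. Alternatives were other filters, a further pseudocount, other scalings, fits on fewer groups, library quality weights, limma-voom on rebuilt reads, a test against a log2 fold change of 0.5 and leaving out each library. Results for some genes are not reported here.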

Additional observations from a re-analysis of the deposited data

How the results depend on the processing

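No paired analysis was possible because the replicate labels of the rivaroxaban and dabigatran groups share no number. The 3161 called genes became 4842 in a fit without the untreated group, 1951 without the sham group and 660 when tested against a log2 fold change of 0.5. Called genes higher with rivaroxaban, 1271, became 2140, 698 and 148 in the same fits, and those lower, 1890, became 1253 without the sham group and 512 in the test against 0.5. Leaving out 1 library gave between 919 and 4840 called genes, between 268 and 2139 higher and between 651 and 2702 lower. The count of called genes was 939 without Dabi-202, 919 without Riva-313, 1334 without Riva-319 and 3382 without Dabi-204, fits in which the lone library of a group is assumed to vary like the other groups. It was 2593 to 2807 without 1 sham library and 2678 and 2686 without 1 aPC library. Without either untreated library it was 4839 and 4840, and these 2 had the lowest estimated quality weights, 0.242 each. The cause of these changes was not tested. A fit of the rivaroxaban and dabigatran libraries only called 3348 genes and limma-voom 3156. Of the genes named in the text, those called kept their direction under every alternative run. Among those not called, the log2 fold change turned negative for Col1a1 (-0.32 without Dabi-202), Pdk4 (-0.35 without Dabi-204), Timd4 (lowest -0.69, without Riva-313) and F2rl3 (lowest -0.29, without Dabi-202). Depth limits the genes near the lower end of the table: 3 reads correspond to -2.54 and -2.72 log2 CPM in the rivaroxaban libraries and -2.48 and -2.83 in the dabigatran libraries.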

Other observations

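Genes of antigen presentation by MHC class II were lower with rivaroxaban in 5 of 12 tested and higher in 0, with a median log2 fold change of -0.90. The count was 1, 2 and 0 without Dabi-202, Dabi-204 and Riva-313. Among 28 antioxidant targets of the transcription factor Nrf2, 10 were lower and 5 higher, with a median of -0.35, or 5 and 2 with Dabi-202 left out, 11 and 2 with Dabi-204, 4 and 1 with Riva-313 and 9 and 1 with Riva-319. Among 29 genes of apoptosis, necroptosis and pyroptosis, 11 were lower and 3 higher, with a median of -0.41, or 4 and 3 without Dabi-202, 3 and 1 without Riva-313 and 6 and 2 without Riva-319.

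Of 187 antisense genes tested, 32 were called higher with rivaroxaban and 4 lower, and of 280 lincRNA genes 32 were higher and 23 lower. Over all 13541 genes tested, 9.39% were called higher and 14.0% lower. Since the strand setting of the counting is not given in the sources used here, antisense reads cannot be told apart from those of the overlapping genes. Summed B cell markers stood at 38.7 and 29.6 CPM with rivaroxaban and at 49.8 and 83.3 CPM with dabigatran, with sham libraries between 29.0 and 47.4 CPM.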
